A study of Rattus norvegicus with 18 samples.

Results

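The IL-20 subfamily was followed in obstructed rat kidney through 5 genes: the cytokine genes Il24 and Il19 and the receptor genes Il20ra, Il20rb and Il22ra1. Each matched 1 row by symbol among the 30957 genes of the deposited table. Il24 and Il19 were chosen because they change strongly in these same libraries, so their levels and fold changes are given as a description, with no test. The 3 receptor genes were taken with them as members of the family, and tests are given for them and for the genes of their pathway.

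The RNA came from renal parenchyma of rats whose left ureter had been tied with silk under ketamine anaesthesia, a model of unilateral ureteral obstruction. There were 5 libraries at 1 day of ligation, 5 at 3 days, 5 at 7 days and 3 labelled 14 days. All 18 carry the same obstruction label, and the sham group named in the design was not analysed here, so no level below is set against unobstructed kidney. The sources used here state no strain, sex or age. They also do not tie each library to its own animal, so a p-value speaks only to how far these libraries scatter, and that scatter may be technical.

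IL-19, IL-20 and IL-24 are cytokines of the IL-10 family that leukocytes and epithelial cells release and that act mainly on epithelium. All 3 bind a receptor made of the chains IL-20RA and IL-20RB; IL-20 and IL-24 also bind IL-22RA1 paired with IL-20RB, and IL-22 binds IL-22RA1 paired with IL-10RB. The bound receptors act through Janus kinases and the transcription factor STAT3, and in skin they drive keratinocyte growth and antimicrobial defence.

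Library totals ran from 5488540 to 12049915 counts and 14511 genes passed the filter on low counts, among them 4 of the 5 members; Il20rb did not. The summed level of 7 proximal tubule markers was 188 to 2800 FPKM (fragments scaled for gene length and library total) over the 18 libraries. By duration it was 271 to 642 FPKM at 1 day, 497 to 2800 at 3 days, 471 to 2000 at 7 days and 188 to 1670 labelled 14 days. The libraries labelled 14 days stood apart: the tubular injury gene Havcr1 had 0.317 to 7.45 FPKM there, against 188 to 1040 FPKM in the other 15. Their summed adipocyte markers were 43.1, 179 and 1910 FPKM, and their summed urothelial markers 5.43, 8.36 and 282 FPKM. Replicate 5 of 1 day also stood apart, with 117 FPKM of adipocyte and 87.8 FPKM of urothelial markers, against 12.9 to 16.1 and 0.248 to 3.85 FPKM in the other 4 libraries of its group. Urothelial markers were also high in replicates 1 and 5 of 3 days, at 70.7 and 11.8 FPKM, above 2 of the 3 libraries labelled 14 days. In whole tissue, a change in the number of cells that make a transcript and a change in transcript per cell cannot be told apart.

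Il24 and Il19 belong to 1 gene cluster. In the deposited annotation, whose build is not named, Il24 (ENSRNOG00000004470) lies on chromosome 13 from 47618452 to 47623849 and Il19 (ENSRNOG00000025571) from 47664080 to 47670407, both on the minus strand and 40.2 kb apart. Il20 (ENSRNOG00000004633) lies between them on the same strand, from 47644071 to 47647715. The 250 bases before the start of each of these 3 genes are shown because Il20, between Il24 and Il19, was barely detected. Il24 and Il19 were both highest at 7 days, and so were the few counts of Il20. Those were 3, 8 and 16 in all at 1, 3 and 7 days, far below the pair in level. They are too few to establish an order of these durations for Il20. The sequences are those of RefSeq on build GRCr8, 5′ to 3′ on the strand of the gene (minus), and capitals mark matches to the STAT motif TTCNNNGAA.

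Il24, chr13:44910761-44911010: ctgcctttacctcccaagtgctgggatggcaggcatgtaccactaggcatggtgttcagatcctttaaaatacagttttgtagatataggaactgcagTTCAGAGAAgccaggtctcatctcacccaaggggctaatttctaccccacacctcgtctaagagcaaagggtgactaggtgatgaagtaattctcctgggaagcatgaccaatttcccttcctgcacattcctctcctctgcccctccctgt

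Il20, chr13:44936894-44937143: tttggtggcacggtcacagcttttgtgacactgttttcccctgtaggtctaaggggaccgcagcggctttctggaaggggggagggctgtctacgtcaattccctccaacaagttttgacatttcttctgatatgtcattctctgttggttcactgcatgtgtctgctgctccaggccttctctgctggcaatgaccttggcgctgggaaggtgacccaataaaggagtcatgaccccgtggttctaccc

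Il19, chr13:44958715-44958964: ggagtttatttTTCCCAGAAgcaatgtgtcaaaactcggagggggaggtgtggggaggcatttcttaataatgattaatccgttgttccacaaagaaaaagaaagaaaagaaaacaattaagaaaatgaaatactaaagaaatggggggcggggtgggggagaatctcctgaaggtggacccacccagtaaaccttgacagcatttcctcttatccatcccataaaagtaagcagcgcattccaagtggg

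Of 5 motifs searched on both strands, the STAT motif TTCNNNGAA was found once before Il24, as TTCAGAGAA beginning 152 bases before the start, and once before Il19, as TTCCCAGAA beginning 239 bases before it. It was not found in the window before Il20. Over the same 250 bases, 7.67% of 33469 rat promoters held this motif. The other 4 motifs were found in none of the 3 windows. They were AP-1 (TGANTCA), held by 6.34% of all promoters, the TATA box (TATAAA), held by 12.9%, a C/EBP motif (TTGCNNAA), held by 9.22%, and an NF-kB motif (GGGA, any 4 bases, then a pair of C), held by 16.4%. These matches describe letters in the windows and no binding was measured.

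Il24, the cytokine also known as mda-7, was the more abundant of the pair at 7 days. At 1 day it had 7.2, 2.95, 6.22, 7.7 and 3.03 FPKM in replicates 1 to 5, and at 3 days 6.8, 10.3, 6.1, 7.78 and 3.33 FPKM. At 7 days it had 71.4, 33.7, 32.3, 39.2 and 47.8 FPKM, and in the libraries labelled 14 days 0.135, 0 and 0.535 FPKM. The values at 1 and 3 days overlapped, every library at 7 days lay above every library at 1 and 3 days, and every library labelled 14 days lay below all others. In CPM 21.2% of all tested genes were free of overlap between 7 and 1 days, 8.3% between 7 and 3 days and 29.5% between labelled 14 and 7 days; the members were chosen on these contrasts, so nothing is read from that.

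In FPKM the mean of Il24 was 5.42 ± 2.28 (1 day), 6.85 ± 2.52 (3 days) and 44.9 ± 16.0 (7 days; SD, n = 5 each). The fitted log2 fold change was 0.32 ± 0.35 for 3 versus 1 day, 2.64 ± 0.35 for 7 versus 3 days and 2.97 ± 0.36 for 7 versus 1 day (SE, edgeR). In CPM (counts scaled by the library total alone), the mean was 6.55 times as high at 7 days as at 3 days and 8.28 times as high as at 1 day. The step between 3 and 7 days placed Il24 at rank 13 of 14511 tested genes by fold change. By level, 33.9% of tested genes had a lower mean FPKM than Il24 at 1 day, 39.1% at 3 days and 86.2% at 7 days. Replicate 1 of 7 days had the highest value, and leaving out any single library kept the 7 versus 3 day fold change between 2.42 and 2.84.

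Il19, a cytokine first described in monocytes, was higher at each step of the first 3 durations. It had 4.51, 3.56, 4.5, 1.73 and 1.11 FPKM at 1 day and 6.6, 5.76, 7.35, 5.07 and 4.87 FPKM at 3 days. At 7 days it had 15.0, 11.9, 10.1, 21.8 and 19.3 FPKM, and in the libraries labelled 14 days 0.595, 0.337 and 0 FPKM. No 2 of the 4 groups overlapped, in the order labelled 14 days, 1 day, 3 days and 7 days. For 3 versus 1 day 8.04% of all tested genes were likewise free of overlap.

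In FPKM the mean of Il19 was 3.08 ± 1.58 (1 day), 5.93 ± 1.04 (3 days) and 15.6 ± 4.9 (7 days; SD, n = 5 each). The fitted log2 fold change was 0.91 ± 0.38 for 3 versus 1 day, 1.31 ± 0.36 for 7 versus 3 days and 2.22 ± 0.38 for 7 versus 1 day (SE, edgeR). Its rank by fold change at 7 versus 3 days was 282 of 14511. These levels rest on few reads, 5 to 26 counts a library at 1 day and 43 to 77 at 7 days, where Il24 had 20 to 79 and 268 to 555.

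**Figure D1:**
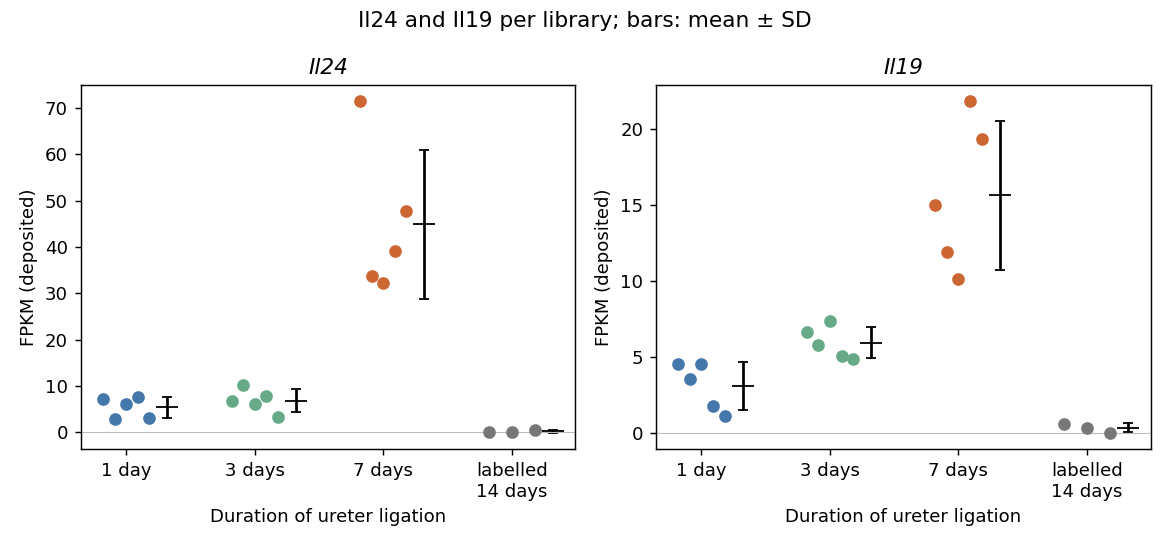
FPKM of Il24 (left) and Il19 (right) in each library by labelled duration of ureter ligation; points are libraries and bars mean ± SD (n = 5, 5, 5 and 3). Il24 stands at 32.3 to 71.4 FPKM at 7 days above all libraries of the other durations, while Il19 is separated at 1, 3 and 7 days.

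The ratio of the 2 cytokines had its lowest mean at 3 days, and it is given as a description with no test. The ratio of Il24 to Il19 in FPKM was 2.20 ± 1.44 at 1 day, 1.17 ± 0.467 at 3 days and 3.02 ± 1.11 at 7 days (SD, n = 5 each). At 3 days it ran from 0.683 to 1.78 and at 7 days from 1.8 to 4.77, so these groups nearly met without overlap. The range at 1 day, 0.828 to 4.46, overlapped both and rests on as few as 5 Il19 counts in a library. Within 7 days the order of the libraries differed between Il24 and Il19. Il24 was highest in replicate 1, where Il19 had 15.0 FPKM, and Il19 was highest in replicate 4, where Il24 had 39.2 FPKM.

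Cell type markers also differed at 7 days. The 7 fibroblast markers summed to 103 to 193 FPKM in 1-day, 140 to 212 in 3-day and 372 to 609 in 7-day libraries. The 6 T and NK cell markers found summed to 20.9 to 94.7 FPKM at 7 days, against 7.78 to 25.1 at 3 days, and the highest value was in replicate 4 of 7 days, which also had the most Il19. Replicate 1 of 7 days, with the most Il24, had the lowest T and NK cell sum (20.9 FPKM) and the lowest fibroblast sum (372 FPKM) of the 7-day libraries. Monocyte and macrophage markers summed to 667 to 3190 FPKM at 7 days and 571 to 1050 at 3 days, with 3190 in both replicates 2 and 4, of which replicate 2 had the second-lowest Il19 of its group (11.9 FPKM). Of the tested markers 6 of 7 fibroblast, 5 of 7 monocyte and macrophage and 5 of 5 T and NK cell genes were higher at 7 than at 1 day (edgeR, adjusted p under 0.05), where 12.3% of all tested genes were higher. The part of these cells in the levels of Il24 and Il19 was not tested. In the same 7-day libraries urothelial markers summed to 0.248 to 1.61 FPKM and mast cell markers to 0.208 to 0.699 FPKM.

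The tested neighbours within 200 kb of Il24 or Il19 were Pfkfb2, Yod1, LOC498222, Fcamr, Pigr, Faim3 and Mapkapk2. None of them was called at 7 days against 1 or 3 days, where 25.6% and 1.05% of all tested genes were called. So few genes say little, and the pair itself was given no test to set beside them. Il20, the cytokine that lies between the pair, had 2, 1, 0, 0 and 0 counts at 1 day, 2, 0, 3, 0 and 3 at 3 days and 6, 5, 0, 0 and 5 at 7 days. Its mean CPM was 0.494 at 7 days and 0.0818 at 1 day, a difference not detectable at this depth (two-sided exact permutation test, p = 0.167, Benjamini-Hochberg p = 0.463 over 8 tests; smallest p possible 0.00794, n = 5 each). Il10, the anti-inflammatory cytokine 69.1 kb from Il19, had 2 counts over the 5 libraries at 1 day, 0 at 3 days and 8 at 7 days. Il22, which uses IL-22RA1 and lies outside this cluster, had 1 count in all 18 libraries.

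Of the neighbours that are no cytokine genes, Faim3, which encodes an IgM receptor and ends 1.4 kb from Il24 on the opposite strand, had a log2 fold change of 0.60 ± 0.36 for 7 versus 3 days (SE, edgeR, adjusted p = 0.395). Pigr, the polymeric immunoglobulin receptor, had −0.72 ± 0.65 (adjusted p = 0.612), and Mapkapk2, a kinase of the p38 pathway, −0.06 ± 0.14 (adjusted p = 0.863). Within 200 kb of any of the 5 members there were 30 other genes, 21 of them tested. For 7 versus 3 days 0 of these 21 passed the adjusted p, where 1.05% of all tested genes did (0.717% higher and 0.331% lower). For 7 versus 1 day 3 rose and 0 fell, where 25.6% of all tested genes were called (12.3% higher and 13.3% lower). They were Ifngr1, an interferon gamma receptor chain near Il20ra (0.72 ± 0.19, edgeR adjusted p = 0.0125), and a pair near Il22ra1. That pair was Pnrc2 (0.45 ± 0.10, adjusted p = 0.00424) and the cannabinoid receptor gene Cnr2 (1.44 ± 0.42, adjusted p = 0.0193). For labelled 14 versus 7 days 6 of the 21 were higher and 3 lower, where 21.4% and 16.9% of all tested genes were. Near Il24, Fcamr was lower (−5.02 ± 0.85, adjusted p = 0.000385) and LOC498222 higher (3.88 ± 0.7, adjusted p = 0.000597).

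**Figure D2:**
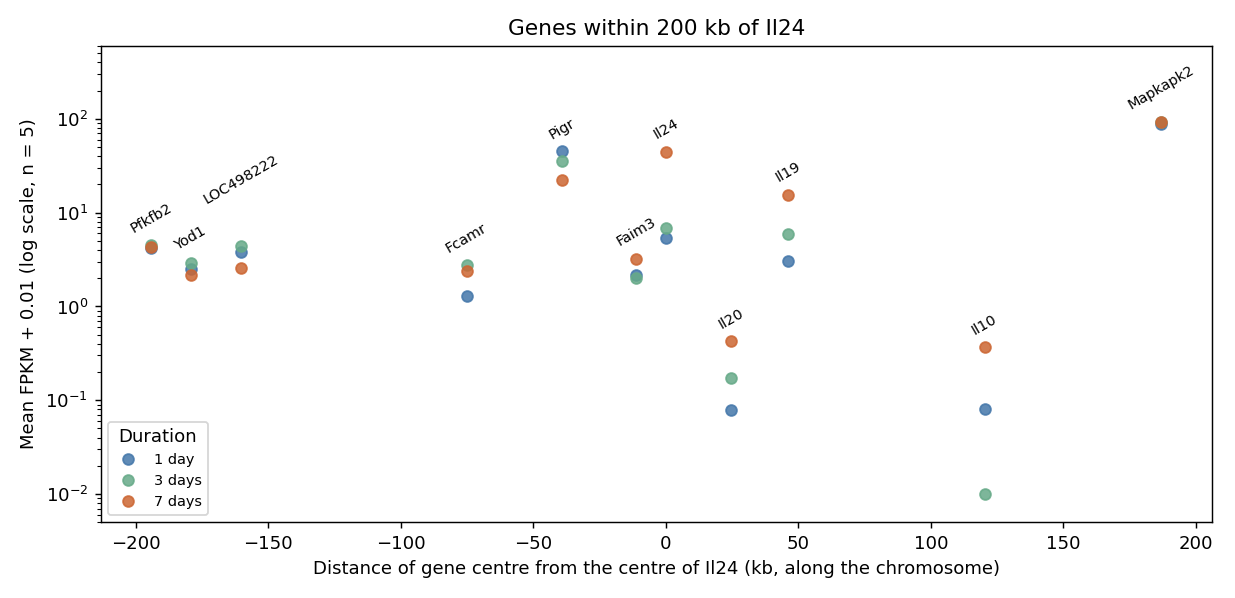
Mean FPKM plus 0.01 (log axis, n = 5) at 1, 3 and 7 days for genes within 200 kb of Il24, placed by the distance of the gene's centre from that of Il24 in kb. The points of Il24 and Il19 spread upward at 7 days, Il20 between them stays below 0.5 FPKM, and Mapkapk2 has nearly the same mean at all 3 durations.

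The receptor chains were scarce beside the cytokines at 7 days, as compared per length in FPKM. Il20ra, a chain of the type I receptor (IL-20RA with IL-20RB), had 1.1, 1.57, 0.53, 0.794 and 0.378 FPKM at 1 day. It had 0.603, 1.47, 1.41, 1.02 and 0.187 FPKM at 3 days. At 7 days it had 0.939, 1.48, 1.62, 0.506 and 0.492 FPKM. The 3 groups overlapped throughout, with means of 0.874 ± 0.476, 0.939 ± 0.546 and 1.01 ± 0.529 FPKM (SD, n = 5 each). The log2 fold change was 0.17 ± 0.53 for 7 versus 1 day (SE, edgeR, adjusted p = 0.844) and 0.06 ± 0.52 for 7 versus 3 days (adjusted p = 0.97). An SE of this size leaves room for changes of about the size of 1 log2 unit in either direction. Il20ra (ENSRNOG00000012286) lies on chromosome 1 from 15180328 to 15222785.

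Il22ra1, which pairs with IL-20RB for IL-20 and IL-24 and with IL-10RB for IL-22, had 0.452, 0.53, 0.472, 0.629 and 0.32 FPKM at 1 day. It had 0.687, 1.03, 0.454, 1.02 and 0.666 FPKM at 3 days and 0.695, 0.904, 0.924, 0.515 and 0.614 FPKM at 7 days. Most libraries of 3 and 7 days lay above those of 1 day, but the ranges overlapped. The log2 fold change was 0.66 ± 0.39 for 3 versus 1 day (SE, edgeR, adjusted p = 0.39), 0.54 ± 0.39 for 7 versus 1 day (adjusted p = 0.336) and −0.13 ± 0.38 for 7 versus 3 days (adjusted p = 0.909). Il22ra1 (ENSRNOG00000027976) lies on chromosome 5 from 154077944 to 154106433.

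Il20rb, the chain that both receptor types share, was close to the limit of detection. It had 3, 0, 0, 1 and 5 counts at 1 day, 3, 1, 1, 0 and 4 at 3 days, and 0, 6, 1, 4 and 2 at 7 days. These are means of 0.186, 0.189 and 0.347 FPKM, and at 7 days 2.05% of tested genes had a lower mean. The groups overlapped, and 7 versus 1 day gave p = 0.381 (two-sided exact permutation test of CPM, Benjamini-Hochberg p = 0.463 over 8 tests, smallest p possible 0.00794, n = 5 each). Il20rb (ENSRNOG00000023214) lies on chromosome 8 from 108747204 to 108777717. Among the first 3 durations none of the 2 tested receptor genes was called in any comparison, where 2.27% of all tested genes were called for 3 versus 1 day, 25.6% for 7 versus 1 day and 1.05% for 7 versus 3 days; 0 of the 2 passed an unadjusted p under 0.05 and 0 passed in DESeq2.

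**Figure D3:**
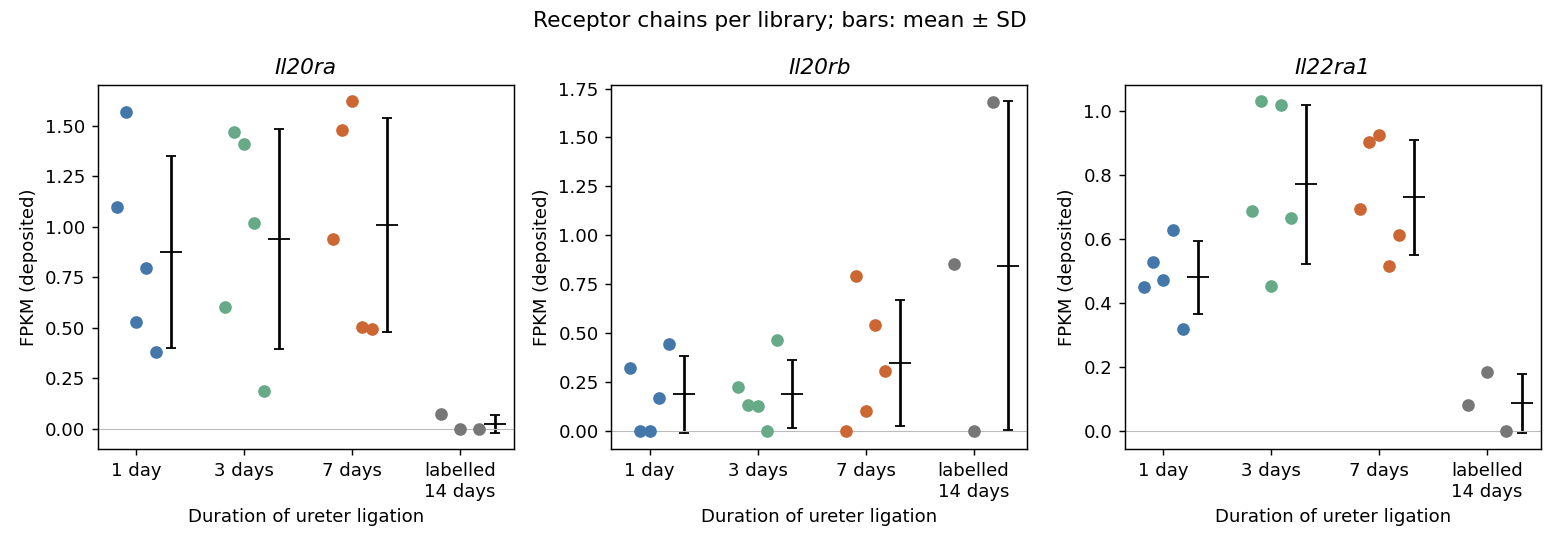
FPKM of the receptor chains Il20ra, Il20rb and Il22ra1 in each library by labelled duration; points are libraries and bars mean ± SD (n = 5, 5, 5 and 3), and each panel has its own scale. The groups of 1, 3 and 7 days overlap in every panel and no library exceeds 1.68 FPKM.

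The genes around the receptors were read from 5 lists of 56 genes, of which 53 were found and 38 tested; with Il20ra and Il22ra1 that makes 40. For 3 versus 1 day 1 of the 40 rose and 0 fell, where 1.16% of all tested genes rose and 1.12% fell, and their median log2 fold change was 0 beside −0.01 over all tested genes. The gene was Birc5, which encodes the division and survival protein survivin, at 8.18 ± 1.14 FPKM at 3 days and 2.84 ± 1.02 at 1 day (1.5 ± 0.32, edgeR adjusted p = 0.0229). It lost the call without replicate 3 or 4 of 1 day or replicate 3 or 4 of 3 days (adjusted p up to 0.0653). For 7 versus 3 days 0 of the 40 were called by edgeR (7 at an unadjusted p under 0.05, and 4 called by DESeq2), with a median of 0.30 beside 0 over all tested genes.

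For 7 versus 1 day 6 of the 40 rose and 2 fell, 20% beside 25.6% of all tested genes, and their median was 0.34 beside 0.01. In the list of inflammatory and repair cytokines 3 of 5 tested members rose, where 12.3% of all tested genes rose. Some of this list raise IL-19 or IL-24 in skin or monocytes. Osm, encoding the IL-6 family cytokine oncostatin M, was at 0.766 ± 0.203 FPKM at 7 days and 0.235 ± 0.136 at 1 day (1.59 ± 0.31, edgeR adjusted p = 0.00182). Il1b, encoding interleukin-1 beta, was at 10.2 ± 7.73 and 3.18 ± 1.56 FPKM at 7 and 1 days (1.59 ± 0.53, adjusted p = 0.0366). Tgfb1, encoding the fibrogenic growth factor TGF-beta 1, was at 55.3 ± 13.9 and 26.9 ± 7.97 FPKM at 7 and 1 days (0.97 ± 0.31, adjusted p = 0.0299). Il1b and Tgfb1 each lost the call without any 1 of replicates 1 to 4 of 1 day or replicates 2, 4 or 5 of 7 days (adjusted p up to 0.144 and 0.0705). Il1b changed most without replicate 4 of 7 days, to 1.07. Of the untested members of this list, Il4 and Il13 had no count in any library, and Il17a had 7 counts over the 5 libraries at 7 days. Ifng, encoding interferon gamma, averaged 0.982 ± 0.471 FPKM at 7 days and 0.067 ± 0.15 at 1 day, from 17 counts and 1 count in all, and these groups did not overlap. Il6, encoding interleukin-6, averaged 1.3 ± 0.898 FPKM at 7 days and 0.245 ± 0.393 at 1 day, and the groups overlapped.

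Of the 3 tested receptor chains of the wider IL-10 family 1 rose and 1 fell, where 12.3% of all tested genes rose and 13.3% fell. Il10ra, which binds IL-10 on leukocytes, was at 5.59 ± 3.86 FPKM at 7 days and 1.66 ± 0.541 at 1 day (1.64 ± 0.41, edgeR adjusted p = 0.00802). Il10rb, the chain that IL-22, IL-10 and lambda interferon receptors share, was at 25.0 ± 5.28 FPKM at 7 days and 35.6 ± 2.36 at 1 day (−0.59 ± 0.16, adjusted p = 0.0147). Ifnlr1, the lambda interferon receptor chain, was at 6.41 ± 1.68 FPKM at 7 days and 3.52 ± 1.49 at 1 day (0.79 ± 0.39, adjusted p = 0.154), and was called in the fit without the libraries labelled 14 days (0.77 ± 0.27, adjusted p = 0.036). Il10rb at 7 days stood at 25.0 FPKM beside 0.347 FPKM for Il20rb. Il22ra2, encoding the soluble decoy receptor of IL-22 and the neighbour of Il20ra, was too low to test, with 5 to 14 counts a group over the first 3 durations.

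Among the signal carriers downstream, Stat3 was at 87.4 ± 8.16 FPKM at 7 days and 93.6 ± 14.6 at 1 day. Of the 7 genes of its list 1 was called (14.3%), beside 25.6% of all tested genes. That gene was Stat5b, a related transcription factor, which fell (−0.49 ± 0.13, edgeR adjusted p = 0.012; 8.13 ± 1.26 FPKM at 7 days and 10.8 ± 2.48 at 1 day). Of the 11 tested STAT3 feedback and target genes 1 rose (9.09%, beside 12.3% of all tested genes), Birc5 (1.78 ± 0.32, adjusted p = 0.00105). The feedback inhibitor Socs3 was at 92.9 ± 11.1 FPKM at 7 days and 65.8 ± 46.8 at 1 day, where replicate 5 alone had 148 FPKM, and it was not called. Of 12 tested genes that epithelium makes in response to these cytokines or IL-22, 1 rose (8.33%, beside the same 12.3%). It was Krt17, a keratin of stressed epithelium, at 1.71 ± 0.976 FPKM at 7 days and 0.333 ± 0.256 at 1 day (2.22 ± 0.56, adjusted p = 0.0082).

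In the fit without the libraries labelled 14 days 13 of the pathway and receptor genes were called for 7 versus 1 day, 4 for 3 versus 1 day and 3 for 7 versus 3 days. In that fit 38.2%, 10.5% and 7.92% of all tested genes were called. The 3 for 7 versus 3 days were Tgfb1 (1.09 ± 0.19, edgeR adjusted p = 0.00589), Krt17 (1.88 ± 0.47, adjusted p = 0.0296) and the neutrophil chemokine gene Cxcl1 (2.33 ± 0.60, adjusted p = 0.0325). For 7 versus 1 day that fit also called genes that the fit of all 18 libraries did not. Of the STAT3 feedback and target genes, Cish (0.62 ± 0.19, edgeR adjusted p = 0.0177) and Ccnd1 (0.83 ± 0.23, adjusted p = 0.0115) rose besides Birc5. Cxcl1 rose (1.62 ± 0.58, adjusted p = 0.038) and the signal carrier Jak1 fell (−0.38 ± 0.13, adjusted p = 0.0341). Neither Il20ra nor Il22ra1 was called in that fit. Il22ra1 had 0.66 ± 0.25 for 3 versus 1 day (SE, edgeR adjusted p = 0.104) and 0.53 ± 0.26 for 7 versus 1 day (adjusted p = 0.111).

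**Figure D4:**
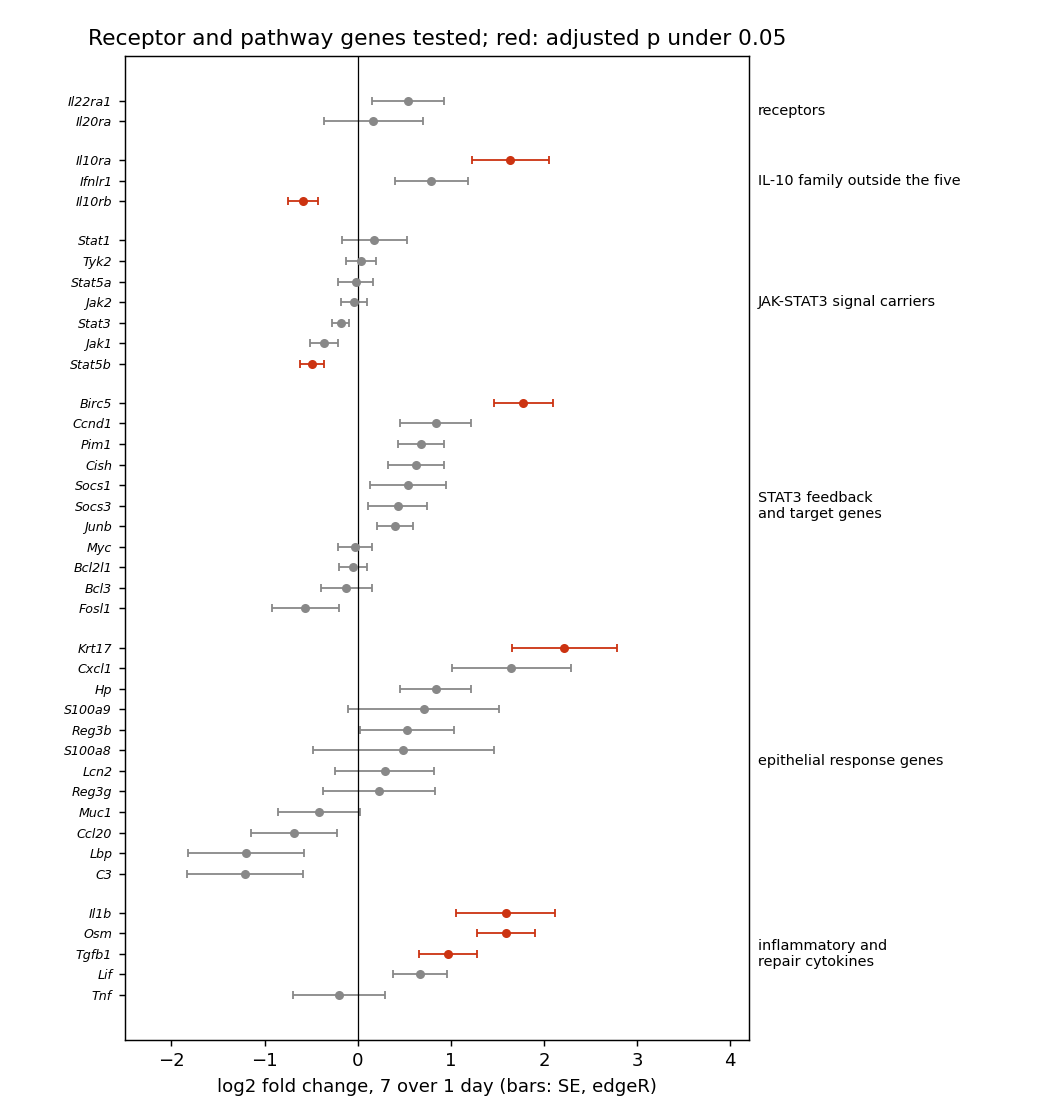
Log2 fold change at 7 over 1 day with its SE (edgeR) for the 40 tested receptor and pathway genes, grouped by list; red marks an adjusted p under 0.05. Il20ra stands at 0.17 with an SE bar that spans 0 and Il22ra1 at 0.54 with one that does not, neither of them red, and the red points include Krt17, Birc5, Osm, Il1b and Tgfb1 to the right and Il10rb and Stat5b to the left.

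The genes whose log2 CPM followed the cytokines most closely over the 15 libraries of 1, 3 and 7 days were taken by Pearson's r, as a description. For Il24 they were Col4a1, a basement membrane collagen chain (r = 0.939), Ubtd2 (0.932), Filip1l (0.928), Gucy1b3, a subunit of the nitric oxide receptor guanylate cyclase (0.926), and Tmem255b (0.926). Gucy1b3 had mean levels in FPKM of 5.32 (1 day), 5.71 (3 days) and 15.4 (7 days). Col4a1 had 140, 146 and 281 FPKM and Ubtd2 5.09, 5.31 and 8.35 FPKM. These were nearly level over the first 2 durations, as Il24 was. Filip1l, at 6.43, 10.3 and 20.9 FPKM, and Tmem255b, at 1.37, 1.98 and 5.38 FPKM, were already higher at 3 days. For Il19 they were Stk4, a Hippo pathway kinase (0.947), Rprm, a cell cycle inhibitor induced by p53 (0.943), AC142181.1 (0.928), Ifitm10 (0.924) and Neurl1 (0.924). Rprm had mean levels in FPKM of 5.6 (1 day), 10.5 (3 days) and 20.3 (7 days), a step at each duration like that of Il19. The 2 cytokines followed each other with r = 0.83, which placed Il19 at rank 132 among the 14510 genes set beside Il24. The points share the 3 durations, and the lists change with the choice of libraries: with all 18, 0 of the 5 genes named for Il24 and 1 of the 5 for Il19 were again among the first 5.

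In the libraries labelled 14 days 4 of the 5 members were close to absent. Il24 had 5 counts over these 3 libraries, against 1790 over the 5 at 7 days. Per counted read that is a ratio of 188 for 7 over labelled 14 days. Il19 had 3 counts against 281, a ratio of 49.2. Il20ra had 1 count against 77, a ratio of 40.4 (exact 95% interval 7.04 to 1620, counting error only). Il20ra was called lower (edgeR adjusted p = 0.00355). Il22ra1 had 0.0813, 0.184 and 0 FPKM against 0.515 to 0.924 FPKM at 7 days (−2.70 ± 0.59, SE, adjusted p = 0.00229). Its fold change was −3.9 without replicate 2 and −2.03 without replicate 3 of those labelled 14 days. Both tested receptor genes were lower, where 38.3% of all tested genes were called and 16.9% were lower. Their counts in the libraries labelled 14 days were too low for the filter, which they passed through the other durations. Il20rb, with a higher mean CPM labelled 14 days than at 7 days, did not pass, so nothing is read from both being lower.

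Il20rb went the other way in 2 of the 3 libraries labelled 14 days, with 6, 0 and 12 counts, or 0.851, 0 and 1.68 FPKM, against 0 to 0.789 FPKM at 7 days. The groups overlapped and the difference was not detectable (two-sided exact permutation test, p = 0.286, Benjamini-Hochberg p = 0.463 over 8 tests; smallest p possible 0.0179, n = 3 and 5). Of the 40 pathway and receptor genes 22 were lower and 5 higher in the libraries labelled 14 days, beside 16.9% and 21.4% of all tested genes. The 5 higher were Muc1, Stat5a, Stat5b, Tyk2 and Il10rb. Muc1 was at 219 ± 169 FPKM labelled 14 days and 28.9 ± 4.99 at 7 days (3.11 ± 0.51, edgeR adjusted p = 0.000285), with 34 FPKM in replicate 2 labelled 14 days. Socs3 was at 7.52 ± 5.48 FPKM in the libraries labelled 14 days (n = 3) and 92.9 ± 11.1 at 7 days (−3.36 ± 0.46, edgeR adjusted p = 7.68e-05). Lif, encoding the IL-6 family cytokine leukaemia inhibitory factor, was at 0.497 ± 0.261 FPKM there and 22.6 ± 7.74 at 7 days (−5.17 ± 0.48, adjusted p = 3.73e-06). Lcn2, encoding the siderophore-binding protein NGAL, was at 8.99 ± 4.52 and 283 ± 123 FPKM for labelled 14 and 7 days (−4.72 ± 0.79, adjusted p = 0.000347). The adipocyte and urothelial markers given above for these 3 libraries, their near lack of Havcr1, and their 14.4 to 27.4% of counts from mitochondrial genes, against 7.25 to 9.21% at 7 days, differ from the 7-day libraries in the same comparison, and their part in these values was not tested.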

How the data were processed

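Poly(A) RNA was captured with oligo-dT beads, per the labels' protocols. The submitters' processing notes name fastp 0.19.7 and HISAT2 2.0.4. No source used here names the counter, its strand setting, the annotation release or the build. For each gene the authors deposited a read count and an FPKM value in every library, as the table's header shows. Low genes were dropped by filterByExpr at a min.count of 10 and a min.total.count of 15, and the counts of the 14511 kept were scaled by TMM and modelled together for the 18 libraries with edgeR 4.0.16 under R 4.3.3 (quasi-likelihood test, 1 term for each duration). A gene was called when its p, adjusted by Benjamini-Hochberg over the tested genes, was below 0.05. The SE is the log2 fold change over the square root of F. The fit was also run on simulated data in which all libraries shared a common mean and spread for each gene, apart from planted changes. That simulation held no group as uneven as the libraries labelled 14 days, so it cannot speak to their effect on the calls. Of the genes too low to test, Il20rb and Il20 were compared by exact permutation of CPM. The rule for named genes took the members, up to 4 called genes a direction in each list or else the 2 of smallest p, neighbours within 200 kb, and the 5 genes most correlated with each cytokine (log2 CPM, prior count 2); the text names part of these. Other list genes were named after their values were seen. The members and gene lists were chosen with earlier results of these data known. Alternatives used DESeq2 1.42.0, RLE factors, no filter, 2 groups alone, the replicate number as a block, and libraries left out. Promoter sequences are from RefSeq (GRCr8), whose table matched 4 of 5 members.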

Additional observations from a re-analysis of the deposited data

Results flagged for a closer look

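Among 96 sets of 5 libraries checked for the members and the named pathway genes, 16 had 1 library far from the other 4, where chance flags about 1 in 20; no member was among them. In replicate 5 of 1 day 5 genes stood high in FPKM: Socs3 at 148 (others 35.5 to 54.1), Muc1 at 89.4 (18.7 to 27.4), Cxcl1 at 18.2 (2.56 to 4.53), Pim1 at 11.7 (5.96 to 6.89) and Ifnlr1 at 6.05 (2.33 to 3.37), together with Hp at 2.56 (0.707 to 1.24). Replicate 5 of 3 days was high in Lcn2 at 1670 FPKM (others 175 to 395), C3 at 256 (44.7 to 61.7), Reg3b at 9.88 (2.13 to 4.27), Cxcl1 at 7.36 (2.55 to 3.76) and Il1b at 6.73 (1.79 to 2.52). Replicate 3 of 1 day had 249 FPKM of C3 (41.1 to 81.8) and replicate 1 of 3 days 26.6 FPKM of Lif (12.4 to 15.3). At 7 days replicate 4 was high in Il10rb at 34.3 FPKM (21.0 to 23.5) and Stat5a at 6.99 (5.12 to 5.44), and replicate 1, which had the most Il24, in Reg3g at 14.1 (1.7 to 4.82).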

How the results depend on the processing

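The log2 fold changes of Il24 and Il19 kept their sign under every setting run. Leaving out 1 library at a time gave 0.13 to 0.5, 2.75 to 3.11 and 2.42 to 2.84 for Il24 and 0.67 to 1.1, 1.98 to 2.41 and 1.17 to 1.43 for Il19 (3 versus 1, 7 versus 1 and 7 versus 3 days), and −8.68 to −6.82 and −6.06 to −4.58 for labelled 14 versus 7 days. Il20ra changed sign without being called: it ranged from −0.13 to 0.44, −0.1 to 0.51 and −0.2 to 0.28 in those 3 comparisons, and was −0.11 (3 versus 1 day) and −0.03 (7 versus 1 day) without the libraries labelled 14 days and replicate 5 of 1 day, a setting chosen after seeing the data. Il22ra1 ranged from −0.26 to 0 for 7 versus 3 days. For labelled 14 versus 7 days both receptors stayed called in each refit. Both passed the filter on low counts through the other durations, so nothing is read from their staying called. For Il22ra1 leaving out 1 library gave −3.9 (without replicate 2 labelled 14 days) to −2.03 (without replicate 3). For Il20ra it gave −6.94 to −4.09, where −6.94 comes without replicate 1, when the 2 remaining libraries have no count. All genes called for 3 versus 1 day numbered 330 (171 with no filter, 1203 with 2 groups alone, 920 by DESeq2, 1463 without the libraries labelled 14 days, 2016 also without replicate 5 of 1 day; 115 to 1159 leaving out 1 library). For 7 versus 3 days they were 152 (64, 981, 881, 1108 and 1772 in the same order; 14 to 870, both highest counts coming without replicate 2 labelled 14 days), for 7 versus 1 day 3713 (5841 with both left out; 2834 to 5146) and for labelled 14 versus 7 days 5560 (3153 with 2 groups alone; 4559 to 7459). Pathway and receptor genes called were 1 for 3 versus 1 day (4 with 2 groups alone, 4 without the libraries labelled 14 days and 7 also without replicate 5 of 1 day; 0 to 2), 8 for 7 versus 1 day (13 and 16 with the same libraries left out; 6 to 14) and 0 for 7 versus 3 days (3 with 2 groups alone, 4 by DESeq2, 3 and 4 with those libraries left out; 0 to 3). The cause was not tested. With the replicate number as a block the all-gene counts were 139 (3 versus 1 day) and 39 (7 versus 3 days), and pathway genes for 3 versus 1 day 0, Birc5 losing its call (1.55, edgeR adjusted p = 0.0524). Same-numbered libraries correlated at −0.42 to 0.39 over 24 pairs and 2 of 18 matched best with their own number, so the numbers were not taken as pairs. Depth limits Il20rb and Il20, with at most 12 counts a library.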
